A study of Mus musculus with 9 samples.

Results

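The liver makes most of the proteins that clot blood, dissolve clots and release kinins, and 34 of their genes were examined here in the livers of mice treated with an antisense oligonucleotide (ASO) against apoC-III. The 34 were chosen by name as clotting factor, fibrinogen, anticoagulant, fibrinolytic and kininogen genes, with related plasma proteins and without the serpins, and all 34 were among the 51912 genes of the deposited table. RNA was sequenced from the livers of 9 fasted mice, 5 given the apoC-III ASO and 4 given a control ASO, each at 50 mg/kg/week for 8 weeks. Their genotype was Apoe-/- Ndst1 f/f Alb-Cre+, backcrossed to C57Bl/6. Every mouse of either group therefore lacked apoE, a ligand for clearance of lipoproteins, and carried floxed Ndst1, a heparan sulfate sulfotransferase gene that Cre under the albumin promoter deletes in hepatocytes. Neither the age of the mice nor their diet was given beside the RNA sequencing, and no group with intact Apoe or Ndst1 was part of it, so the values compare the ASOs in this double-deficient liver alone.

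Clotting proceeds as a cascade in which each protease cuts and activates the next. The contact system starts with factor XII, plasma prekallikrein and high molecular weight kininogen, which also carries bradykinin. The tissue factor branch starts with factor VII, and both branches meet at factor X, which with factor V turns prothrombin into thrombin. Thrombin turns fibrinogen into fibrin, and plasmin, made from plasminogen, dissolves it. Hepatocytes secrete nearly all of these proteins, whereas tissue factor, thrombomodulin, von Willebrand factor, factor VIII and the plasminogen activators come largely from endothelium and other cells.

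The deposited values are TPM, transcript levels that account for the length of each gene and sum to the same total in every liver. Nuclear protein-coding genes held between 1.94% and 8.64% of that total, the lowest share being in control ASO replicate 4, whose median-of-ratios factor of 0.217 lay far below the 0.638 to 1.81 of the other 8 livers. TPM was therefore divided by these factors, and the result is called scaled TPM. Apoc3, the target, stood at 20.2 ± 4.94 scaled TPM (SD, n = 5) on the apoC-III ASO and at 160.3 ± 21 (SD, n = 4) on the control ASO, with every treated liver below every control (p = 0.00794 by a two-sided exact permutation test, which allows none smaller here). Of the 8 defining hepatocyte markers 7 were found by name, and these were present. Their summed level was 1052 to 2435 scaled TPM on the apoC-III ASO and 1471 to 1860 on the control ASO. Albumin (Alb) was the largest part of that sum, at 677 to 1797 and 888 to 1155. TPM keeps no read depth, so no counting error can be attached to the value of a single liver.

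The members spanned a wide range of mean scaled TPM, from 130.5 to 0.0137, as the plot of levels by liver shows. Fibrinogen gamma chain (Fgg) led at 130.5, followed by the fetuin Ahsg at 105.8 and fibrinogen alpha chain (Fga) at 105.4. In all, 15 members had a mean of at least 10 scaled TPM, 10 lay between 1 and 10, and 6 more lay under 1 but above the minimum of 0.1 needed for a test. Tissue factor (F3, mean 0.0771), tissue plasminogen activator (Plat, 0.0191) and urokinase (Plau, 0.0137) were under that minimum and were not tested, and Plau was listed at 0 in 3 livers. The 34 genes together made up 1.21% to 2.13% of protein-coding TPM in the apoC-III ASO livers, 0.905% in control ASO replicate 4 and 1.59% to 1.72% in the other controls. The 5 members with the highest mean over all livers, Fgg, Ahsg, Fga, Vtn and Kng1, held 61.5% to 70.4% of the members' TPM in a liver.

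**Figure D1:**
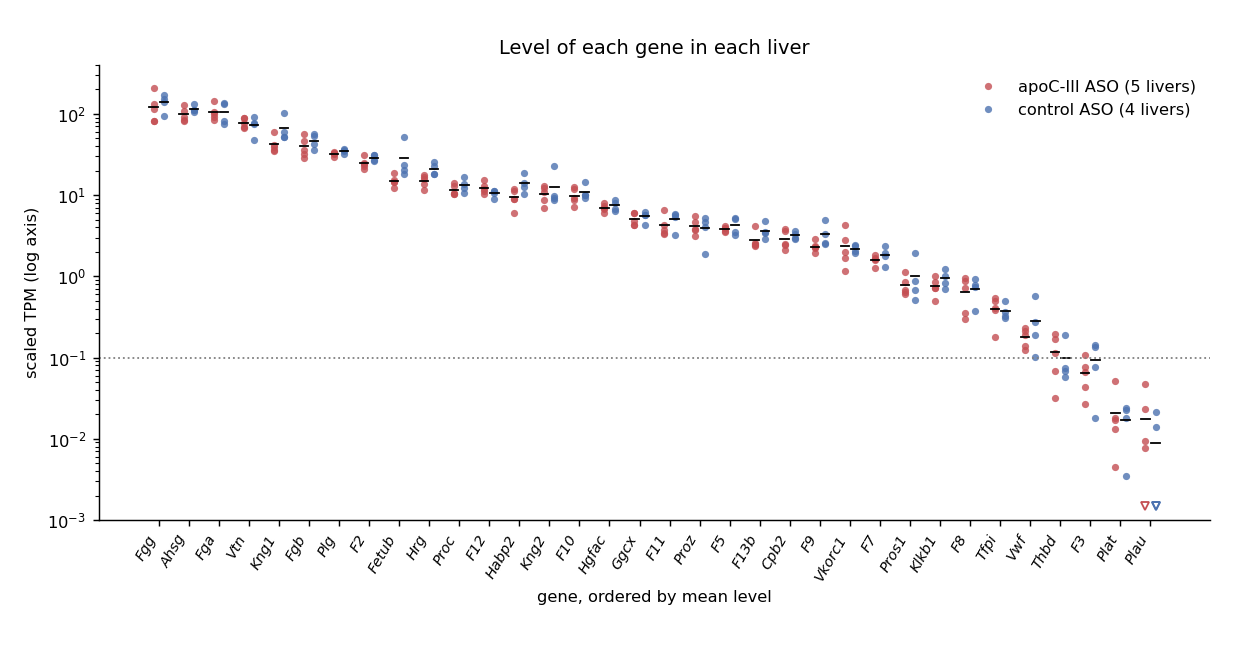
Scaled TPM (log axis) of the 34 genes in each of the 9 livers, ordered by mean over all livers, with red points for the 5 apoC-III ASO livers, blue points for the 4 control ASO livers, black bars for group means and open triangles for values of 0. The dotted line is the minimum mean of 0.1 for a test, which F3, Plat and Plau miss, and in most genes the red and blue points overlap.

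None of the 31 genes tested changed at an adjusted p under 0.05. The test was limma-trend on log2(scaled TPM + 0.1) with Benjamini-Hochberg adjustment over 12338 genes, in which 2 genes passed (0.0162%), and the members' adjusted p ran from 0.897 to 0.998. At an unadjusted p under 0.05, 0 members were higher on the apoC-III ASO, against 3.0% of all genes tested. The same threshold gave 3 lower members, against 2.56% of all genes. These were fetuin B (Fetub), histidine-rich glycoprotein (Hrg) and kininogen 1 (Kng1). Of these 3, Fetub alone was left without apoC-III ASO replicate 2, 3 or 4, or without control ASO replicate 4. Hrg alone was left without apoC-III ASO replicate 5, and 0 on deposited TPM without scaling. Habp2 was added without apoC-III ASO replicate 3, and F13b without replicate 4. Groups did not overlap for Hrg alone, lower on the apoC-III ASO, where 0.875% of all genes tested were lower without overlap, and for 0 members in the higher direction, where the share over all genes was 1.02%.

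By sign alone 25 of the 31 members were lower and 6 were higher on the apoC-III ASO, while 49.3% of all genes tested were lower. The members' median log2 fold change was -0.19, against 0.0052 over all genes tested. The 7 hepatocyte markers tested had a median of -0.29, with 6 lower and 1 higher. On deposited TPM without scaling 10 of 32 members were lower and 22 higher. On that unscaled table the median of all genes was itself 0.20 and that of the members 0.11. The members are expressed largely in the same cell type and share each liver's scaling, so their signs are not separate observations. In bulk liver, fewer cells of a type and less RNA per cell cannot be told apart. On log2(scaled TPM + 0.1), the 95% intervals left out a 2-fold higher level for all 31 members and a 2-fold lower level for 27. The exceptions were Fetub, Kng1, Habp2 and Vwf. Adding 0.1 narrows the intervals of members near that level, so these counts do not exclude a 2-fold change in them. With 0.01 added instead, the log2 fold change was 0.16 (SE 0.58) for Thbd and -0.21 (SE 0.41) for F8. With 0.1 their standard errors were 0.31 and 0.35.

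**Figure D2:**
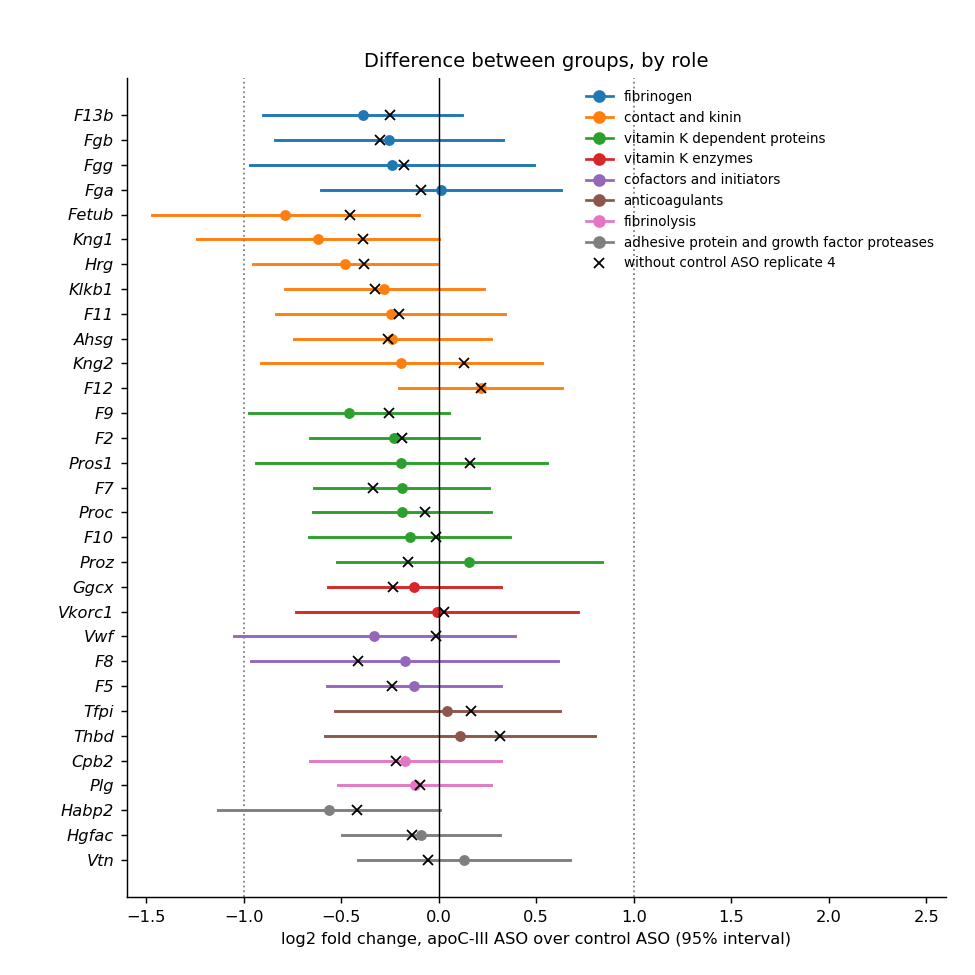
Log2 fold change on the apoC-III ASO over the control ASO for the 31 genes tested, grouped by role in color, with 95% intervals from limma-trend, dotted lines at 2-fold and crosses for the value without control ASO replicate 4. Points of 25 genes lie left of 0, 10 of 32 on deposited TPM without scaling, and the crosses of Fga, Kng2, Pros1, Proz, Vkorc1 and Vtn lie on the other side of 0 from their points.

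The fibrinogen genes lie side by side on chromosome 3 and are known targets of interleukin-6 signaling and of the liver factors C/EBP and HNF1, which bind their promoters. The deposited files hold no sequence, so promoter windows from RefSeq (GRCm38.p6) running from 250 bases before to 50 after each transcription start were searched on both strands. Windows were listed for 27 of the 34 members. The letters of an IL-6 responsive element, CTGGGAA, were in 6 of these 27 windows (22.2%) and in 11.1% of all 32851 windows. The letters of a C/EBP site, TTGCNNAA, were in 11 (40.7%) against 10.8% of all windows, and those of an HNF1 site core, GTTAAT, were in 8 (29.6%) against 7.1%. A TATA box, TATAAA, was in 6 (22.2%) against 13.6%. These are matches of letters in a window, and the windows of all genes include many genes that are silent in liver.

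The upstream parts of 5 windows are printed 5′ to 3′ on the strand of the gene, to show the fibrinogen trio beside neighbors of the chromosome 16 group that holds the lowest p-values. Capitals mark matches on either strand to the IL-6 responsive element, C/EBP and HNF1 letters, none of which overlap each other here.
Fga, chr3:83025903-83026075, + strand: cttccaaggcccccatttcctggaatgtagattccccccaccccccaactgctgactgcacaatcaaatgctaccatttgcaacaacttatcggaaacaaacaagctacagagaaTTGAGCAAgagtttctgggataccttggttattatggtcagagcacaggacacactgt
Fgb, chr3:83049864-83050113, - strand: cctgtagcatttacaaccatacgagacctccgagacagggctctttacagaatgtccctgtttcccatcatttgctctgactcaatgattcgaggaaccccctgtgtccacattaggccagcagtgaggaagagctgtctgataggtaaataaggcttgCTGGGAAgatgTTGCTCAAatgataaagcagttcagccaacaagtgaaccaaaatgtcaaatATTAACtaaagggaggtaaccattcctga
Fgg, chr3:83007474-83007723, + strand: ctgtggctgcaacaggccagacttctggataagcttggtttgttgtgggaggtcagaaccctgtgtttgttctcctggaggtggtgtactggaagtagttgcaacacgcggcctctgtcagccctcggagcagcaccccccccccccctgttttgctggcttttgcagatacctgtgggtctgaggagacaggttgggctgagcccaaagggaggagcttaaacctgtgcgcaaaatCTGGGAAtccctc
Hrg, chr16:22950822-22951071, + strand: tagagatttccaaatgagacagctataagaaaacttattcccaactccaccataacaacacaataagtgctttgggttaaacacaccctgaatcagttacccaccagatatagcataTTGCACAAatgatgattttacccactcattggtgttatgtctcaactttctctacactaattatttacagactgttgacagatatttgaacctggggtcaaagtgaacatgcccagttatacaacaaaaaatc
Fetub, chr16:22918132-22918333, + strand: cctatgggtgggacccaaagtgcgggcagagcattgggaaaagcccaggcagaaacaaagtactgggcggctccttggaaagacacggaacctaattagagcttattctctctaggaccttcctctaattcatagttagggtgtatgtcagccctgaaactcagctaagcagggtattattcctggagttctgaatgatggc

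Of these 5 stretches, that of Fgb holds a match to each of the 3 motifs, with the IL-6 responsive element and the C/EBP site a few bases apart. Fgg holds the IL-6 responsive element close to its start, and Fga and Hrg hold a C/EBP match. The HNF1 match counted for Fga lies outside the part printed. The stretch of Fetub holds none of the 3, which says no more than that these letters are not in this window.

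Fibrinogen, the soluble precursor of fibrin, is a hexamer of alpha, beta and gamma chains, and factor XIII cross-links the fibrin made from it. Fgg is at 83007724-83015049, Fga at 83026076-83033627 and Fgb, on the opposite strand, at 83040141-83049863 of chromosome 3 (GRCm38). Fgg stood at 131, 114, 206, 82.1 and 82.4 scaled TPM in apoC-III ASO replicates 1 to 5 and at 142, 93.8, 169 and 154 in control ASO replicates 1 to 4. ApoC-III ASO replicate 3 was the highest of all livers and replicates 4 and 5 the lowest, and the groups overlapped. Fgg had a log2 fold change of -0.24 (SE 0.33), with a 95% interval of 0.512 to 1.40 times the control level. Fga stood at 106, 90.6, 144, 99.2 and 84.9 scaled TPM on the apoC-III ASO and at 132, 74.6, 135 and 82.0 on the control ASO.

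The log2 fold change of Fga was 0.013 (SE 0.28), with an interval of 0.659 to 1.55 times the control level, and its controls fell into a high pair (replicates 1 and 3) and a low pair (replicates 2 and 4). Fgb stood at 46.9, 36, 56.5, 28.9 and 31.9 scaled TPM on the apoC-III ASO and at 53.5, 36.4, 56.0 and 42.2 on the control ASO, a log2 fold change of -0.25 (SE 0.26). As for Fgg, apoC-III ASO replicate 3 was the highest treated liver. F13b, which encodes the carrier subunit of factor XIII, ranged from 2.35 to 4.13 scaled TPM on the apoC-III ASO and from 2.88 to 4.86 on the control ASO (log2 fold change -0.39, SE 0.23). For F13b, 4 of the 5 treated livers were below the range of the controls and the exception, replicate 4, was inside it. Without that liver F13b had an unadjusted p under 0.05. On unscaled TPM the signs of Fgg and Fgb turned higher.

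Because the chains are assembled in equal numbers, their ratios within a liver were compared as well, a measure that needs no scaling between livers. Fga was 2.26 to 3.43 times Fgb in the treated livers (median 2.55) and 1.94 to 2.47 times in the controls (median 2.23), so the ranges overlapped. The difference in the mean log2 ratio was 0.27 (exact two-sided permutation test, p = 0.0952; 0.286 after Benjamini-Hochberg adjustment over 6 ratios). Fgb was 0.275 to 0.387 times Fgg in the treated livers and 0.274 to 0.388 times in the controls, nearly the same range, with a difference of -0.016 (exact permutation p = 0.905, adjusted 0.905). Fga was 0.701 to 1.21 times Fgg against 0.531 to 0.928 times, and that difference of 0.25 did not pass either (exact permutation p = 0.333, adjusted 0.50).

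**Figure D3:**
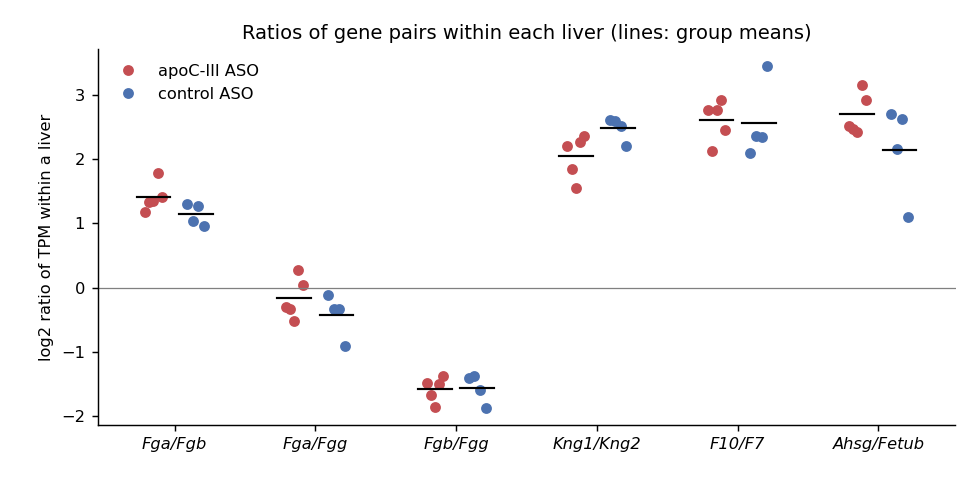
Log2 ratio of TPM of the 6 gene pairs within each liver, with red points for the 5 apoC-III ASO livers, blue points for the 4 control ASO livers and black lines for group means. The groups overlap in all 6 pairs, and Ahsg over Fetub and F10 over F7 each have a control point, that of replicate 4, apart from the others.

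The kininogen group has 8 genes here, of which 7 were lower and 1 was higher on the apoC-III ASO, with a median log2 fold change of -0.26, and on unscaled TPM F11, Kng2 and Ahsg turned higher. Of these genes 5 sit together on chromosome 16 (GRCm38) in the order Ahsg at 22891277-22899449, Fetub at 22918334-22939778, Hrg at 22951072-22961656, Kng2 at 22985854-23029482 on the minus strand and Kng1 at 23057865-23082078. They encode secreted proteins with cystatin-type domains. The other deposited genes in this span were Gm6493, a processed pseudogene inside Kng2, and Gm23715, a small nuclear RNA at 0 in every liver.

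Fetub encodes fetuin B, a protease inhibitor needed for the egg to remain fertilizable. It stood at 18.8, 14.5, 15.5, 14.5 and 12.1 scaled TPM on the apoC-III ASO and at 20.4, 23.2, 18.2 and 51.3 on the control ASO. Of the treated livers 4 lay below all controls and replicate 1 was just above the lowest control, while control ASO replicate 4 stood far above the other controls. The level on the apoC-III ASO was 0.580 times the control level (log2 fold change -0.79, SE 0.31, 95% interval 0.360 to 0.934 times, limma-trend adjusted p = 0.897). With control ASO replicate 4 left out, Fetub had -0.46 (SE 0.18, adjusted p = 0.912) and was then the sole member with an unadjusted p under 0.05.

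Hrg encodes a plasma glycoprotein that binds heparin, heparan sulfate, plasminogen and zinc. It stood at 17.5, 11.6, 13.5, 15.9 and 16.9 scaled TPM on the apoC-III ASO and at 18.0, 18.1, 22.6 and 25.6 on the control ASO. Every treated liver was below every control, with the highest treated liver next to the lowest control. Its log2 fold change was -0.48 (SE 0.21, 0.717 times the control level, interval 0.518 to 0.993, limma-trend adjusted p = 0.897). Without control ASO replicate 4 it was -0.38 (SE 0.19, adjusted p = 0.926), no longer under an unadjusted p of 0.05.

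Kng1 encodes the high and low molecular weight kininogens, from which kallikreins release kinins, and it is labelled in a heat map that the study drew from these livers, so its direction here is not independent evidence. The study's heat maps show protein-coding genes at an adjusted p under 0.05 in its own test of read counts, lipogenesis genes and fatty acid transport genes. That test was not repeated here. Kng1 stood at 60.3, 39.3, 35.7, 41.8 and 35.3 scaled TPM on the apoC-III ASO and at 60.3, 51.7, 52.0 and 103.7 on the control ASO. The treated liver of replicate 1 was at the level of control ASO replicate 1, the other 4 treated livers were below all controls, and control ASO replicate 4 stood apart. The log2 fold change was -0.62 (SE 0.28, 0.650 times the control level, interval 0.423 to 1.0, limma-trend adjusted p = 0.897). Without control ASO replicate 4 it was -0.39 (SE 0.22, adjusted p = 0.926), likewise no longer under an unadjusted p of 0.05.

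Kng2, the second kininogen gene of the mouse, stood at 13.1, 10.9, 12.2, 8.69 and 6.85 scaled TPM on the apoC-III ASO and at 9.87, 8.61, 9.13 and 22.6 on the control ASO. Of the treated livers 3 lay above control ASO replicates 1 to 3, and control ASO replicate 4 lay above every other liver. The log2 fold change was -0.19 (SE 0.32), and without control ASO replicate 4 it was 0.13, so the sign of Kng2 rests on that liver and on the scaling. Kng1 and Kng2 share sequence, with 26.5% of the 31-base runs of Kng1 transcripts also in Kng2 and 30.6% of those of Kng2 also in Kng1, so reads could be divided between them in more than a single way. Kng1 was 2.93 to 5.15 times Kng2 in the treated livers (median 4.61) and 4.60 to 6.10 times in the controls (median 5.85), a difference in log2 of -0.43 (exact two-sided permutation test, p = 0.0714, adjusted 0.286). The overlap of the ranges rests on control ASO replicate 4, at 4.60 times. Control ASO replicates 1 to 3 were at 5.69 to 6.10 times, above every treated liver.

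Ahsg, which encodes fetuin A, an inhibitor of mineral deposition, ranged from 80.6 to 129 scaled TPM on the apoC-III ASO and from 104 to 133 on the control ASO. Its log2 fold change was -0.24 (SE 0.23), with an interval of 0.597 to 1.2 times the control level, and in control ASO replicate 4 it stood at 110.1, within the other controls. Ahsg was 5.38 to 8.91 times its neighbor Fetub in the treated livers and 2.15 to 6.50 times in the controls (difference in log2 0.55, exact two-sided permutation p = 0.151, adjusted 0.302). Without control ASO replicate 4 that difference was 0.20 (exact permutation p = 0.411, adjusted 0.49). The high value of control ASO replicate 4 was thus shared by Fetub, Kng2 and Kng1, to a smaller extent by Hrg, and not by Ahsg.

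**Figure D4:**
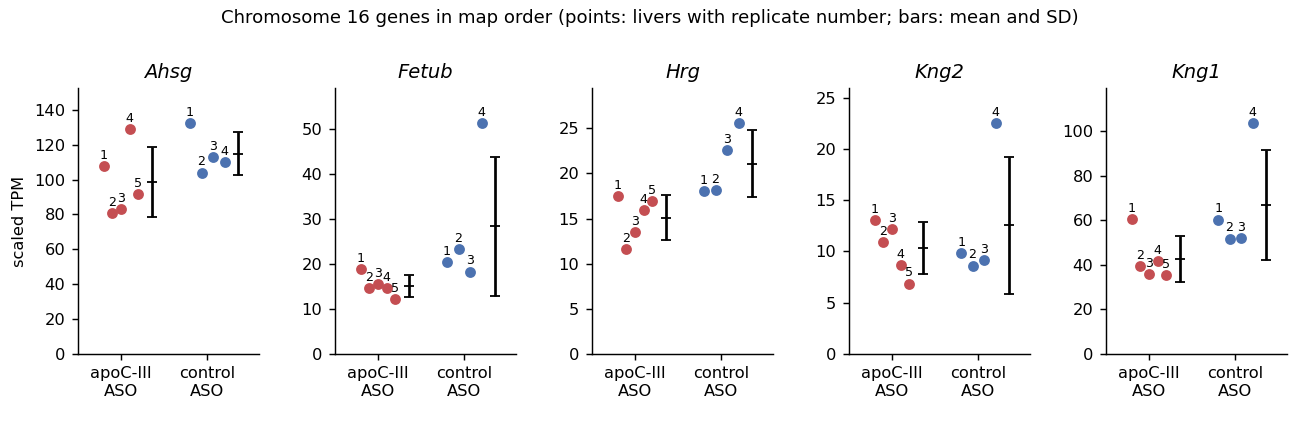
Scaled TPM of the 5 neighboring genes of chromosome 16 in map order, with red points for apoC-III ASO livers, blue points for control ASO livers, replicate numbers above the points, and bars for mean and SD. For Hrg the groups do not overlap, and control ASO replicate 4 stands far above the other controls in Fetub, Kng2 and Kng1 but not in Ahsg.

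Summed cell type markers were compared between control ASO replicate 4 and the rest. Red cell markers summed to 97.1 scaled TPM there against 2.82 to 9.17 in the other controls and 2.20 to 42.5 in the treated livers. Stellate cell markers summed to 20.7 there, against 12.2 to 14.9 in the other controls and 9.40 to 14.3 in the treated livers, with 6 of 7 tested markers lower on the apoC-III ASO and 2 of these, Lrat and Dcn, with an unadjusted p under 0.05. Of the 7 hepatocyte markers tested 6 were lower and 0 had an unadjusted p under 0.05 (3.0% and 2.56% of all genes tested by direction). Hepatocyte markers summed to 1860 in control ASO replicate 4, against 1471 to 1709 in the other controls and 1052 to 2435 in the treated livers. Alb, the largest part of this sum, was at 1155 there and at 677 to 1797 in the treated livers. Cholangiocyte markers summed to 5.56 there against 2.21 to 3.77 in the other controls. The Kupffer cell sum of 3.36 was within the 3.06 to 5.27 of the other controls. Lrat is also labelled in a heat map that the study drew from these livers. The part of these markers in the values of Fetub, Hrg and Kng1 was not tested.

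The remaining contact genes are the proteases and their zymogens. F12, encoding factor XII, was the member with the largest log2 fold change upward, 0.21 (SE 0.19), ranging from 10.3 to 15.2 scaled TPM on the apoC-III ASO and from 9.07 to 11.3 on the control ASO. Of the treated livers 3 were above all controls. F11 and Klkb1, neighbors on chromosome 8 that encode factor XI and plasma prekallikrein, had log2 fold changes of -0.25 (SE 0.26) and -0.28 (SE 0.23). Both overlapped, F11 at 3.36 to 6.57 against 3.23 to 5.87 scaled TPM and Klkb1 at 0.496 to 1.01 against 0.691 to 1.25. Klkb1 shares 43.2% of its 31-base runs, nearly all with the overlapping gene model Gm45753, which was itself at 2.53 to 3.61 and 2.82 to 3.48 scaled TPM, so the level of Klkb1 is uncertain.

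The vitamin K dependent proteins need carboxylation of glutamate residues before they can bind calcium and membranes. Of the 7, 6 were lower and Proz was higher, with a median log2 fold change of -0.19 and 0 of them at an unadjusted p under 0.05; on unscaled TPM F2, F7, F10, Proc and Pros1 turned higher. F2, encoding prothrombin, stood at 24.8, 21, 23.0, 31.5 and 24.0 scaled TPM on the apoC-III ASO and at 31.4, 26.4, 26.8 and 31.1 on the control ASO. Of the treated livers 4 were below all controls and the fifth, replicate 4, was above them by a small margin. The log2 fold change of F2 was -0.23 (SE 0.20), with an interval of 0.632 to 1.16 times the control level.

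F9, encoding the factor missing in hemophilia B, had the largest difference of the vitamin K dependent members, with 1.93 to 2.87 scaled TPM on the apoC-III ASO against 2.52 to 4.95 on the control ASO (log2 fold change -0.46, SE 0.23, limma-trend adjusted p = 0.910). Without control ASO replicate 4, which held the highest F9, it was -0.26. F7, F10 and Proz, which encode factor VII, factor X and protein Z, lie next to each other on chromosome 8 within 13026034-13076026. F7 ranged from 1.26 to 1.83 scaled TPM on the apoC-III ASO and from 1.32 to 2.36 on the control ASO (log2 fold change -0.19, SE 0.20). F10 ranged from 7.15 to 12.4 and from 9.24 to 14.3 (log2 fold change -0.15, SE 0.23), and Proz from 3.18 to 5.56 and from 1.86 to 5.18 (0.16, SE 0.31).

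In control ASO replicate 4 these 3 neighbors parted, with F10 the highest of all livers, and F7 and Proz the lowest of the controls. F10 was 4.39 to 7.56 times F7 in the treated livers and 4.27 to 10.9 times in the controls, a difference in log2 of 0.049 (exact two-sided permutation p = 0.889, adjusted 0.905). Without that liver this difference was 0.34, and the log2 fold changes were -0.012 (SE 0.21) for F10, -0.16 (SE 0.21) for Proz and -0.34 (SE 0.17) for F7. The anticoagulant pair Proc (protein C) and its cofactor Pros1 (protein S) had log2 fold changes of -0.19 (SE 0.21) and -0.19 (SE 0.34), and that of Proc was -0.073 without control ASO replicate 4. Pros1 reached 1.94 scaled TPM in control ASO replicate 4 against 0.505 to 0.874 in the other controls and 0.614 to 1.12 in the treated livers, and its log2 fold change without that liver was 0.16.

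The enzymes that serve this modification did not pass the test. Ggcx, the gamma-glutamyl carboxylase, ranged from 4.27 to 6.07 scaled TPM on the apoC-III ASO and from 4.34 to 6.28 on the control ASO (log2 fold change -0.13, SE 0.20). Vkorc1, the warfarin target that recycles vitamin K, ranged from 1.17 to 4.27 and from 1.91 to 2.42, a wider spread among treated livers than among controls (log2 fold change -0.0075, SE 0.33). The signs of both turned higher on unscaled TPM. Vkorc1 shares 46.0% of its 31-base runs with the overlapping model Gm21974, listed at no more than 0.13 scaled TPM.

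Among cofactors and initiators, F5 was even across treated livers, at 3.47 to 4.16 scaled TPM against 3.26 to 5.25 in the controls (log2 fold change -0.13, SE 0.20, turned higher on unscaled TPM). F8, which is made in endothelium, ranged from 0.30 to 0.962 and from 0.373 to 0.923 (log2 fold change -0.17, SE 0.35), the largest standard error of the members. Vwf, the carrier of factor VIII in plasma and an endothelial and platelet product, ranged from 0.124 to 0.231 on the apoC-III ASO and from 0.101 to 0.57 on the control ASO (log2 fold change -0.33, SE 0.32). The highest Vwf value was again that of control ASO replicate 4, and without it the log2 fold change was -0.017.

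The platelet markers summed to 4.0 scaled TPM in control ASO replicate 4, against 0.464 to 0.672 in the other controls and 0.547 to 1.95 in the treated livers, with 2 of 8 markers high enough to test. The endothelial markers summed to 18.7 there, against 11.4 to 15.8 in the other controls and 11.9 to 21.7 in the treated livers. The part of either in the Vwf value was not tested. The anticoagulants of the vessel wall were low in these livers. Thbd, the thrombin receptor thrombomodulin, lay at 0.0315 to 0.194 scaled TPM on the apoC-III ASO and at 0.0580 to 0.191 on the control ASO (log2 fold change 0.11, SE 0.31). Tfpi, the tissue factor pathway inhibitor, lay at 0.181 to 0.543 and 0.306 to 0.503 (0.044, SE 0.26).

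Fibrinolysis was represented in hepatocytes by plasminogen. Plg stood at 32.6, 29.1, 33.2, 34.0 and 31.7 scaled TPM on the apoC-III ASO and at 35.8, 32.0, 35.2 and 37.1 on the control ASO. The values overlapped in a narrow band, and Plg had the smallest standard error of the members, with a log2 fold change of -0.12 (SE 0.18) and an interval of 0.699 to 1.2 times the control level. Cpb2, whose product TAFI removes the lysines that plasminogen binds on fibrin, ranged from 2.13 to 3.88 and from 2.89 to 3.61 (log2 fold change -0.17, SE 0.22). The activators Plat and Plau, as given above, were too low to test. On unscaled TPM both Plg and Cpb2 turned higher.

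The last 3 members are an adhesive protein and proteases of the plasma. Vtn, encoding vitronectin, which binds the plasminogen activator inhibitor PAI-1, ranged from 67.3 to 89.8 scaled TPM on the apoC-III ASO and from 48.4 to 91.4 on the control ASO (log2 fold change 0.13, SE 0.24), and it was -0.054 without control ASO replicate 4, which held the lowest value. Hgfac, which activates hepatocyte growth factor, ranged from 5.99 to 8.09 and from 6.45 to 8.73 (log2 fold change -0.090, SE 0.18, turned higher on unscaled TPM). Habp2, the factor VII activating protease, was at 6.06 to 12.1 on the apoC-III ASO and 10.4 to 18.5 on the control ASO, with 3 treated livers below all controls. Its log2 fold change of -0.56 (SE 0.26, limma-trend adjusted p = 0.897) became -0.42 (SE 0.24) without control ASO replicate 4.

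The members of a liver did not all lie high or low together. Control ASO replicate 4 held the highest control value for 14 of the 31 members tested and the lowest for 7, and control ASO replicate 2 held the lowest for 17. Among treated livers, apoC-III ASO replicates 1 and 4 each held the highest value for 11 members, and replicate 2 the lowest for 10. Leaving out control ASO replicate 4 also moved members not described that way above, with log2 fold changes of -0.25 for F13b, -0.24 for F5, -0.41 for F8, -0.24 for Ggcx, 0.31 for Thbd and 0.16 for Tfpi, and of -0.093 for Fga and 0.026 for Vkorc1, whose signs turned.

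Genes of the same pathways outside the 34 were read from the same test, with 0 of them at an adjusted p under 0.05. Of 23 other regulators of clotting and fibrinolysis 16 were tested, 4 higher and 12 lower in sign (median log2 fold change -0.11), and 1 had an unadjusted p under 0.05, lower, as did 2.56% of all genes tested. This was Serpind1, encoding heparin cofactor II, a thrombin inhibitor that works with heparin and dermatan sulfate, at 11.5 ± 1.12 scaled TPM (SD, n = 5) against 16.4 ± 1.42 (SD, n = 4). Every treated liver was below every control for Serpind1, as for 0.875% of all genes tested (log2 fold change -0.51, SE 0.18, limma-trend adjusted p = 0.881). Its controls ranged from 14.8 to 18.2, with control ASO replicate 4 the highest. The main thrombin inhibitor gene, Serpinc1 (antithrombin), was at 114 ± 24.5 and 136 ± 11.8 scaled TPM.

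Of 11 genes of the vitamin K cycle and of clotting factor secretion 10 were tested, 5 higher and 5 lower, and 1 of them, Lman1, was lower at an unadjusted p under 0.05, again beside 2.56% of all genes. Lman1 encodes the cargo receptor that carries factors V and VIII out of the endoplasmic reticulum. It was at 9.23 ± 1.37 scaled TPM (SD, n = 5) on the apoC-III ASO and 13.6 ± 1.92 (SD, n = 4) on the control ASO, without overlap, beside 0.875% of all genes (log2 fold change -0.55, SE 0.19, limma-trend adjusted p = 0.881). Its controls ranged from 11.5 to 16.1, again with control ASO replicate 4 the highest. The partner of Lman1, Mcfd2, was at 2.56 ± 0.844 and 2.31 ± 0.547.

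Of 8 genes of kinin formation and breakdown 3 were tested, with 0 at an unadjusted p under 0.05, and the kinin receptor genes Bdkrb1 and Bdkrb2 were listed at 0 in all 9 livers. Of 8 related complement-like and growth factor proteases and lectins 7 were tested, 3 higher and 4 lower, again with 0 at that threshold. The count of 0 in these lists stands beside 3.0% of all genes higher and 2.56% lower at an unadjusted p under 0.05.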

How the data were processed

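Liver RNA of 5 mice given apoC-III ASO and 4 given control ASO had been depleted of ribosomal RNA and sequenced as stranded single-end libraries. The values per gene were deposited as TPM, tied by the submitters' notes to kallisto 0.43.1 and GRCm38, while the methods of the study name STAR, featureCounts and DESeq2, whose read counts were not used here. The files hold no comparison columns.

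Genes were annotated with GENCODE M21, which held 99.5% of the 51912 identifiers. TPM was divided by median-of-ratios factors over the 14190 genes above 0 in all 9 livers. The 12338 genes with a mean scaled TPM of at least 0.1 were tested with limma 3.58.1 in R 4.3.3 (lmFit, eBayes with trend) on log2(scaled TPM + 0.1), without covariates, with Benjamini-Hochberg adjustment and a threshold of 0.05. Fold changes on this scale understate the change of low genes. Within-liver ratios of 6 gene pairs and Apoc3 were tested with exact two-sided permutation tests over 126 splits. Promoter motifs, 31-base runs shared between transcripts and plots were made with Python 3.11.15, numpy 2.4.6, pandas 2.3.3 and matplotlib 3.10.9. The steps were tested on simulated data.

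The members and lists were chosen with earlier results of these data known. Every member is named. Each liver's value is given for Fga, Fgb, Fgg, F2, Plg, Kng1, Kng2 and members with an unadjusted p under 0.05 or without overlap, and genes of the other lists are named at an unadjusted p under 0.05. Serpinc1, Mcfd2 and Hnf4a were added after their values were seen. Promoters were printed for the fibrinogen genes and for Hrg and Fetub, and Kng1 had no window.

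Alternatives were deposited TPM without scaling, rescaling to nuclear protein-coding genes, pseudocounts of 1 and 0.01, no filter, a minimum of 1, array weights, a block for the replicate number, and each liver left out. The block was fitted without apoC-III ASO replicate 5. P-values cover the spread between livers.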

Additional observations from a re-analysis of the deposited data

Results flagged for a closer look

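Among 62 groups of livers (31 genes in each of the treatment arms), 8 held a liver whose value stood apart from the rest of its group by Dixon's criterion, where chance gives about 1 in 20. Control ASO replicate 4 accounts for 5 of the 8. Kng1 stood at 103.7 scaled TPM there against 51.7 to 60.3 in the other controls, Kng2 at 22.6 against 8.61 to 9.87, and Fetub at 51.3 against 18.2 to 23.2. These 3 genes are near neighbors on chromosome 16, yet Ahsg of the same group did not stand apart. F10 stood at 14.3 against 9.24 to 10.1 and Thbd at 0.191 against 0.0580 to 0.0743.

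In the treated livers, Kng1 stood at 60.3 in apoC-III ASO replicate 1 against 35.3 to 41.8 in the others. F11 stood at 6.57 in replicate 3 against 3.36 to 4.24, and F13b at 4.13 in replicate 4 against 2.35 to 2.55.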

How the results depend on the processing

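Under 17 alternatives 0 members had an adjusted p under 0.05 (lowest 0.646), and 478 of 521 member fold changes kept their sign, 9 of the 31 members in every alternative. The 3 members lower at an unadjusted p under 0.05 became 0 on deposited TPM without scaling, and 1 with a pseudocount of 1 (Fetub), with array weights (Hrg) and with a replicate block (Hrg). They numbered 4 after protein-coding rescaling, with a pseudocount of 0.01 and with no filter, each time with Habp2 added, and 1 to 4 with each liver left out, 1 without apoC-III ASO replicate 2 or 5 or control ASO replicate 4. Fetub was under that threshold in 13 alternatives, Hrg in 10, Kng1 and Habp2 in 6 each. The median log2 fold change of the members turned to 0.11 on unscaled TPM.

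On unscaled TPM the log2 fold change turned to 0.078 for Fgb, 0.096 for Fgg, 0.071 for F11, 0.14 for Kng2, 0.095 for Ahsg, 0.10 for F2, 0.073 for F7, 0.18 for F10, 0.14 for Proc, 0.12 for Pros1, 0.18 for Ggcx, 0.29 for Vkorc1, 0.18 for F5, 0.21 for Plg, 0.13 for Cpb2 and 0.23 for Hgfac. With array weights, where the weight of control ASO replicate 4 was 0.328, it turned to -0.095 for Fga, 0.11 for Kng2, 0.043 for Pros1, -0.047 for Proz and -0.028 for Vtn. With a pseudocount of 1 it turned to 0.019 for Vkorc1. With the replicate block it turned to 0.024 for Vkorc1, -0.018 for Thbd and -0.030 for Tfpi. The block fit had no apoC-III ASO replicate 5, which has no control of its number. With equal groups a block leaves fold changes as they are. These turns are therefore those of leaving out that liver, counted a second time. The replicate numbers are shared by name alone: livers of the same number had correlations of deviations of -0.0081 to 0.12, and 2 of 4 correlated best with their own number.

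With each liver left out, ranges that crossed 0 were -0.14 to 0.15 for Fga, -0.33 to 0.13 for Kng2, -0.43 to 0.16 for Pros1, -0.16 to 0.32 for Proz, -0.24 to 0.20 for Vkorc1, -0.41 to 0.019 for F8, -0.018 to 0.31 for Thbd, -0.060 to 0.24 for Tfpi and -0.054 to 0.25 for Vtn. So did the differences in the log2 ratio of Fgb to Fgg, -0.12 to 0.056, and of F10 to F7, -0.11 to 0.34. The cause of these turns was not tested. The small share of protein-coding TPM, the lack of read counts and the spread of 4 controls limit these values. Intervals of 4 members reach past a 2-fold difference on log2(scaled TPM + 0.1), a scale that narrows the intervals of low members.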

Other observations

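Factors that drive hepatocyte secretory genes were measured in the same livers. Of 15 such genes 15 were tested, 10 higher and 5 lower in sign, and 1 was lower at an unadjusted p under 0.05 (2.56% of all genes tested were), Esr1, the estrogen receptor alpha gene, at 0.184 ± 0.0439 scaled TPM (SD, n = 5) on the apoC-III ASO and 0.522 ± 0.383 (SD, n = 4) on the control ASO (log2 fold change -0.94, limma-trend adjusted p = 0.897). Hnf4a, a master regulator of hepatocyte genes, was at 11.6 ± 2.37 and 8.89 ± 2.50.

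Acute phase genes, several of which respond to the same cytokine as fibrinogen, numbered 14 tested of 14, 8 higher and 6 lower, with 1 in each direction at an unadjusted p under 0.05 beside 3.0% of all genes higher and 2.56% lower. Saa3, a serum amyloid A gene, was at 2.62 ± 0.836 and 1.46 ± 0.661 scaled TPM (log2 fold change 0.84, limma-trend adjusted p = 0.897). Steap4, a metalloreductase gene, was at 0.833 ± 0.191 and 1.23 ± 0.262 (log2 fold change -0.52, limma-trend adjusted p = 0.897). Kupffer cell markers summed to 3.34 to 4.82 scaled TPM on the apoC-III ASO and 3.06 to 5.27 on the control ASO, and cholangiocyte markers to 2.0 to 4.32 and 2.21 to 5.56.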
